A study of Mus musculus with 64 samples.

Results

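The Sox11-high cells are the sorted dentate gyrus cells selected on their own Sox11 transcript level, at 500 TPM or more. TPM is a transcript abundance corrected for length and given relative to the library's total, summed here over the transcripts of a gene. They were 9 of 64 cells, and they were compared with the 32 cells in which Sox11 was below 50 TPM, the Sox11-low cells. The 23 cells between these bounds were left out of the comparison. The study profiled single cells from the dentate gyrus of Dcx-dsRed transgenic mice aged 6 to 7 weeks, in which a red fluorescent protein is driven by the regulatory sequence of doublecortin. Cells positive for the reporter were sorted, captured one by one on a C1 microfluidic chip, and made into polyadenylated RNA libraries with Nextera XT. The labels call every cell an immature neuron and name neither animals nor subgroups. They give the same strain, age range and sort description for all cells of both sets, and no treatment is named. Whether the cells came from the same animals or the same sort is not given, and each set counted as 1 sample. Hence no p-value is given, and differences describe these cells.

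Sox11 encodes a transcription factor of the SoxC group, with Sox4 and Sox12 as its relatives. In the adult dentate gyrus, Sox11 is known from intermediate progenitors and newborn neurons, where it acts with Sox4 in the onset of neuronal gene expression, and it is largely absent from resting stem cells and mature granule neurons. Newborn granule cells pass through a neuroblast stage marked by Dcx, the calcium-binding protein calretinin (Calb2) and growing neurites before they take up the calcium-binding protein calbindin (Calb1) and the synaptic proteins of mature granule neurons.

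Sox11 chose the cells, so its levels are a description only. It stood at 2829 TPM in cell 57, 2531 TPM in cell 67, 1677 TPM in cell 46, 1402 TPM in cell 80, 1338 TPM in cell 63, 1318 TPM in cell 47, 1025 TPM in cell 2, 679 TPM in cell 68 and 557 TPM in cell 56. In Sox11-low cells it ran from 0 to 44.9 TPM with a median of 5.28 TPM, and 26 of the 32 had at least 1 TPM. Nearest to the upper bound were cell 56 inside it at 557 TPM and cell 11 outside it at 328 TPM. Nearest to the lower bound were cell 23 inside it at 44.9 TPM and cell 16 outside it at 51.0 TPM.

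The Sox11-high libraries held an estimated 448331 to 3393530 reads (median 1031179 reads) and 4161 to 5890 genes at 1 TPM or more (median 5227 genes). The Sox11-low libraries held an estimated 573746 to 3968408 reads and 3535 to 6779 genes (median 5098.5 genes). Among these 41 cells, those numbered up to 24 had deeper libraries than those numbered from 31. The deeper libraries were 1 Sox11-high cell (cell 2) and 13 Sox11-low cells, and the shallower ones 8 Sox11-high and 19 Sox11-low cells. Each cell is a library of its own, and the highest Pearson correlation between any pair of the 41 cells was 0.613, so none was taken as a repeat of another. No doublet caller was run. Genes that most cells use were listed at 0 in single libraries of this series (Tuba1a, an alpha-tubulin gene, in at least 1 Sox11-low cell), so a value of 0 is given as listed at 0.

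**Figure D1:**
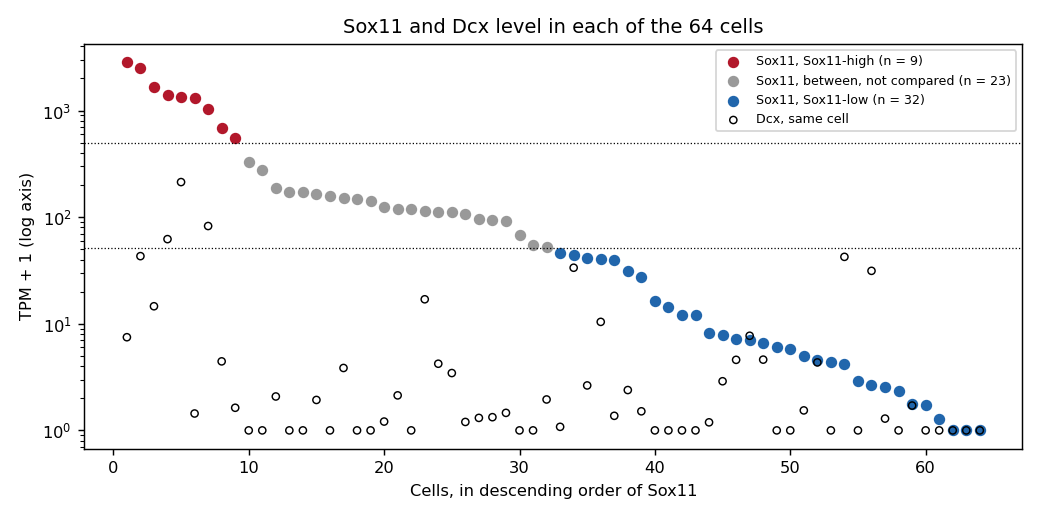
Sox11 (filled points) and Dcx (open circles) in each of the 64 cells, in descending order of Sox11, as TPM + 1 on a log axis, with the bounds at 500 and 50 TPM dotted. The 9 Sox11-high cells run from 2829 to 557 TPM of Sox11, and the highest Dcx, 212 TPM, is in one of them.

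Outside Sox11, 10316 genes were at 1 TPM or more in at least 10% of the 41 cells. A gene was counted as higher or lower when its mean log2(TPM + 1) differed by 2 or more between the sets. This held for 421 genes higher in Sox11-high cells, 4.08% of those compared, and for 431 genes lower, 4.18%. With a pseudocount of 0.1 in place of 1 the counts were 1028 higher and 1074 lower, and with one of 10 they were 77 and 87. The median difference over all compared genes was 0.005 on that scale. The genes on the higher side were led by transcripts of young neurons and of the immediate early response, and those on the lower side by transcripts of myelin. Differences on the log2(TPM + 1) scale understate the change of low genes, and most genes here were read in a part of the cells only.

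The early neuroblast list was present in 6 of 9 Sox11-high cells and in 0 of 32 Sox11-low cells. A list is called present in a cell when at least 50% of its members reached 10 TPM. The exact Clopper-Pearson 95% intervals are 29.9% to 92.5% for the Sox11-high cells and 0% to 10.9% for the Sox11-low cells. By the simpler rule that a count of 0 stands for at most 3 cells, 0 of 32 allows a share of up to 9.38%. These intervals cover counting error over cells only. Of the 20 members, 17 were detected widely enough to be compared, of which 11 were higher by 2 or more and 0 were lower, against the background of 4.08% of all genes. The median difference over the 17 was 3.00 on the log2(TPM + 1) scale, against 0.005 over all genes. Sox4 and Eomes, detected in 0 of 32 Sox11-low cells, passed the detection filter through the Sox11-high cells alone. Cd24a, Calb2 and Dpysl3, each in 3 of 32 Sox11-low cells, also passed it only with the Sox11-high cells. For such members the count as higher partly follows from the filter. The list was in none of the 23 cells between the bounds either. Its 6 holders were cells 67, 46, 80, 63, 2 and 68, while cell 56 had the fewest members at 10 TPM, 4 of 20. When members had to reach 100 TPM, the list was present in 1 of the 9 Sox11-high cells. The split also rests on the 50% bound, since Sox11-low cells 53 and 54 had 9 and 8 of 20 members at 10 TPM. Summed over the list, Sox11-low cells 51 (10120 TPM) and 53 (9757 TPM) exceeded the Sox11-high median of 9060 TPM.

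Dcx itself, the microtubule-binding protein whose regulatory sequence drives the sorted reporter, was at 212 TPM in cell 63, 81.6 TPM in cell 2, 61.2 TPM in cell 80, 42.1 TPM in cell 67, 13.6 TPM in cell 46, 6.48 TPM in cell 57, 3.44 TPM in cell 68, 0.63 TPM in cell 56 and 0.44 TPM in cell 47. Sox11-low cells ran from 0 to 41.4 TPM with a median of 0.24 TPM. At 1 TPM or more it was found in 7 of 9 Sox11-high cells and in 11 of 32 Sox11-low cells. The sets overlap, and 4 Sox11-high cells lie above every Sox11-low cell. Its mean difference was 2.85 on the log2(TPM + 1) scale. The transcript of the sorting marker was thus below 1 TPM in 2 of the 9 Sox11-high cells, cells 47 and 56.

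Sox4, the SoxC relative that acts with Sox11 in newborn neurons, was at 51.7 TPM in cell 63, 41.6 TPM in cell 80, 36.3 TPM in cell 2, 24.2 TPM in cell 47, 19.9 TPM in cell 46, 15.4 TPM in cell 57 and 3.35 TPM in cell 67, and it was listed at 0 in cells 68 and 56. No Sox11-low cell exceeded 0.84 TPM. These 7 cells thus lie above all 32 Sox11-low cells, and those listed at 0 are the ones with the lowest Sox11. The mean difference was 3.41 on the log2(TPM + 1) scale. Sox12, the remaining SoxC gene, was at 1 TPM or more in 2 of 9 Sox11-high cells and in 8 of 32 Sox11-low cells, with a difference of −0.33.

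Cd24a, a glycosylated surface protein of neuroblasts, set the cells apart in the same way. It was at 860 TPM in cell 63, 287 TPM in cell 46, 237 TPM in cell 67, 197 TPM in cell 2, 164 TPM in cell 68, 132 TPM in cell 57 and 78.4 TPM in cell 80, and it was listed at 0 in cells 47 and 56. The highest Sox11-low cell had 9.28 TPM, below all 7 of these cells. The difference was 5.72 on the log2(TPM + 1) scale. Eomes (Tbr2), the transcription factor of intermediate progenitors, was at 230 TPM in cell 67, 180 TPM in cell 80, 110 TPM in cell 46, 102 TPM in cell 47 and 31.2 TPM in cell 2, and at or below 0.70 TPM in the other four. No Sox11-low cell exceeded 0.18 TPM of Eomes, which was singled out after its values were seen.

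Genes of the young neuronal cytoskeleton were higher as well. Tubb3, the neuronal beta-tubulin, was at 1674 TPM in cell 68, 1448 TPM in cell 57, 1141 TPM in cell 80, 1044 TPM in cell 46, 1019 TPM in cell 63, 883 TPM in cell 2, 797 TPM in cell 67 and 7.43 TPM in cell 47, and it was listed at 0 in cell 56. In Sox11-low cells it ran from 0 to 1001 TPM with a median listed at 0, and 12 of the 32 had at least 1 TPM. The sets overlap, with 5 Sox11-high cells above every Sox11-low cell. The difference was 5.83 on the log2(TPM + 1) scale. Calb2, the calretinin of the neuroblast stage, was at 1179 TPM in cell 57, 633 TPM in cell 80, 571 TPM in cell 63, 386 TPM in cell 68, 99.9 TPM in cell 56, 58.0 TPM in cell 47 and 44.1 TPM in cell 46, and it was listed at 0 in cells 67 and 2. It was at 1 TPM or more in 3 of 32 Sox11-low cells, the highest at 248 TPM. Cells 67 and 2, which lacked it, both held Dcx, Tubb3 and Cd24a, so markers of the neuroblast stage did not all occur in the same cells.

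Other members of the list followed. Dpysl3, a collapsin response mediator of growing axons, differed by 4.86 on the log2(TPM + 1) scale and was detected in 7 of 9 Sox11-high cells and 3 of 32 Sox11-low cells. Elavl4, a neuronal RNA-binding protein, differed by 3.93, and Gap43, a protein of growth cones, by 3.60. Gap43 was singled out after its values were seen. Stmn1, a tubulin-binding protein of dividing and migrating precursors, was at 2533 to 8186 TPM in the 9 Sox11-high cells (median 5943 TPM), against 0 to 9653 TPM in Sox11-low cells (median 2405 TPM). The levels of Stmn1 overlapped throughout, and it was at 1 TPM or more in 29 of 32 Sox11-low cells. Nhlh1, Neurog2 and Igfbpl1, transcripts of progenitors and early neuroblasts, were too rare to be compared, with 2, 1 and 3 of 9 Sox11-high cells in that order and 1, 0 and 0 of 32 Sox11-low cells.

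**Figure D2:**
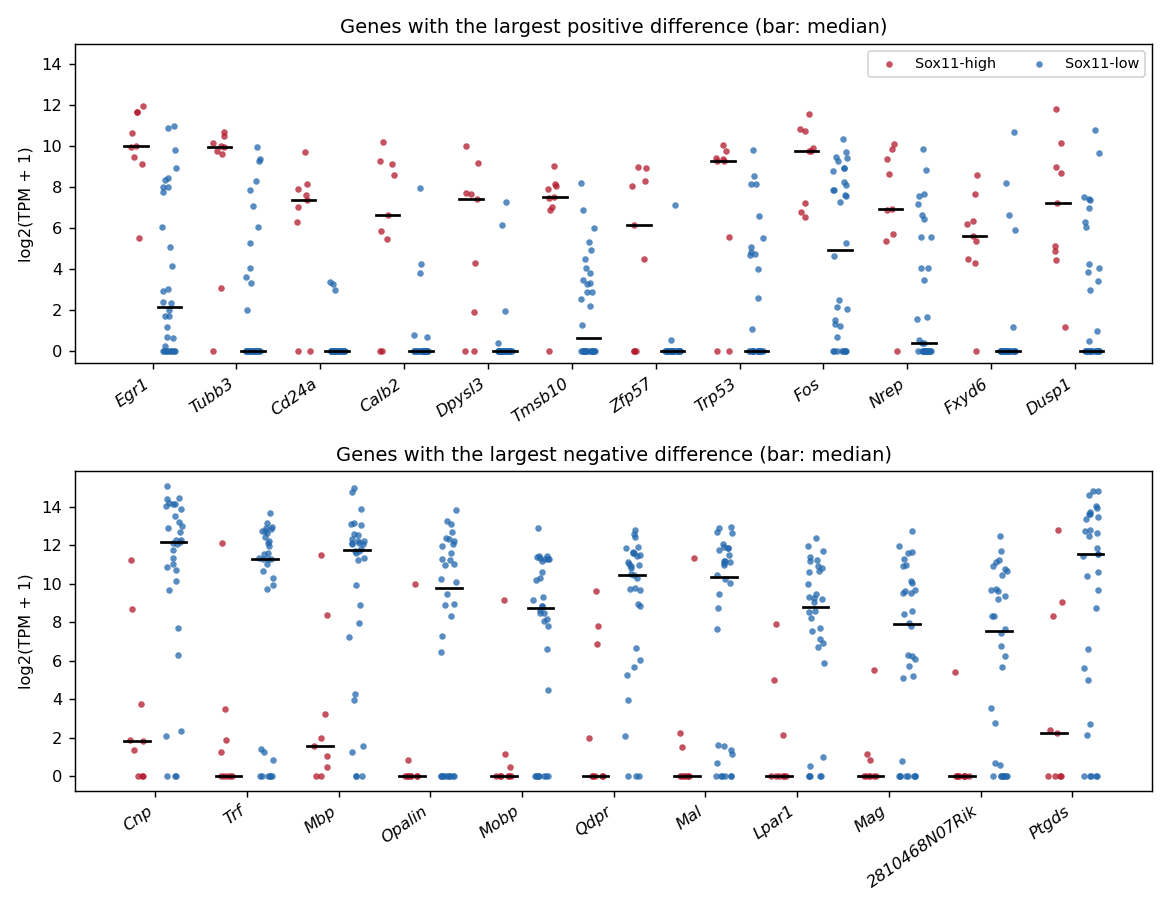
The genes named for the largest positive (top) and the largest negative difference (bottom), among genes detected in at least 50% of the set in which they are higher, each point being 1 cell on the log2(TPM + 1) scale, with Sox11-high cells left of Sox11-low cells and bars at the medians. Cd24a separates 7 of the 9 Sox11-high cells from all Sox11-low cells, and cell 46 is the single high point in Trf, Opalin and Mal.

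Among the 16 genes of axon growth and the cytoskeleton, 4 were higher by 2 or more and 0 lower, against 4.08% of all genes higher, with a median difference of 1.04. Tubb5, a beta-tubulin of proliferating and young cells, was at 116 TPM in cell 56 and at 783 to 4275 TPM in the other 8 Sox11-high cells, against 0 to 872 TPM (median 164 TPM) in Sox11-low cells. All but cells 56 and 63 thus lie above every Sox11-low cell. Tubb2a, another beta-tubulin, differed by 3.09, Marcks, an actin-binding substrate of protein kinase C, by 3.02, and Tmsb10, an actin-sequestering thymosin of young neurons, by 4.85 on the log2(TPM + 1) scale. Actb, the cytoplasmic actin, had a difference of 0.04. Tubulin genes are similar in sequence, so the split of reads among them is uncertain. Cell 56 stood low in this list, with a summed level of 6132 TPM against 21670 to 30891 TPM in the other 8 Sox11-high cells.

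The genes with the largest differences also held some outside the lists. Zfp57, a zinc finger protein that guards imprinted methylation, was at 1 TPM or more in 6 of 9 Sox11-high cells and in 1 of 32 Sox11-low cells. Its difference was 4.76 on the log2(TPM + 1) scale. Zfp57 passed the detection filter only with the Sox11-high cells, so its place among the higher genes partly follows from the filter. Trp53, the p53 tumour suppressor, was at 1062 TPM in cell 2, 863 TPM in cell 56, 701 TPM in cell 80, 674 TPM in cell 63, 619 TPM in cell 47, 615 TPM in cell 67 and 46.5 TPM in cell 68, and it was listed at 0 in cells 57 and 46. Trp53 was detected in 13 of 32 Sox11-low cells, which reached 895 TPM. The sets overlap, 1 Sox11-high cell standing above all Sox11-low cells. Its start overlaps Wrap53 on the opposite strand, and the library kit does not mark strand. Nrep, a neuronal regeneration protein, differed by 4.45, and Fxyd6, a modulator of the sodium pump, by 4.39. The sets overlap in both, as Sox11-low cells reached 921 TPM of Nrep and 1658 TPM of Fxyd6. Above every Sox11-low cell lay 2 Sox11-high cells for Nrep and 0 for Fxyd6.

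Immediate early genes, which are switched on within a short time by neuronal activity and other stimuli and mostly encode transcription factors and phosphatases, were among the leading ones. Of the 12 members, 9 were compared, and 6 were higher by 2 or more and 0 lower, against 4.08% of all genes higher, with a median difference of 4.21. The list was present in 5 of 9 Sox11-high cells and in 4 of 32 Sox11-low cells. Of the 9 members compared, 8 had a difference above 0, and Arc went the other way. Arc was listed at 0 in all 9 Sox11-high cells and detected in 10 of 32 Sox11-low cells, with a difference of −1.19. Ier2, detected in 4 of 32 Sox11-low cells, passed the detection filter only with the Sox11-high cells. Members past the threshold are shown by their promoters, because they were higher together and several are textbook targets of the cAMP response element. The stretches below are the 200 bases upstream of the start, on the gene's strand, from RefSeq on GRCm38.p6. Capitals mark TGACG on either strand, where the palindrome TGACGTCA counts on both.
Fos, chr12:85473690-85473889, plus strand: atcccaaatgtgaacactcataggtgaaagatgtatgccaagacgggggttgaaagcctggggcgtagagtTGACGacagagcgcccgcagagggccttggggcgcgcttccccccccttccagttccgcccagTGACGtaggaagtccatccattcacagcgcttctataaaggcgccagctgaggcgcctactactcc
Fosb, chr7:19310046-19310245, minus strand: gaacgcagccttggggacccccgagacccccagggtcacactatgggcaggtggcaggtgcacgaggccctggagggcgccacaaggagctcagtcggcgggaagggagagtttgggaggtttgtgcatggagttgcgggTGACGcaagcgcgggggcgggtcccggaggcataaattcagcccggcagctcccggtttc
Dusp1, chr17:26508473-26508672, minus strand: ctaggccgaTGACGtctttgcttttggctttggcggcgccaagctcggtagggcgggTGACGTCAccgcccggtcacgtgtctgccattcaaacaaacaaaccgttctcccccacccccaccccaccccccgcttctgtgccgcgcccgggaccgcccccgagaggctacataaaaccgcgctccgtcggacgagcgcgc
Btg2, chr1:134079156-134079355, minus strand: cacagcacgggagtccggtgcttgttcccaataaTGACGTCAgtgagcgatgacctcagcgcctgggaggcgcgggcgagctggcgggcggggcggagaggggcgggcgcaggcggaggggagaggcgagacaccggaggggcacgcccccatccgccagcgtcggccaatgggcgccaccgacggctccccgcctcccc
The letters occur 2 times for Fos, 1 time for Fosb, 3 times for Dusp1 and 2 times for Btg2. Of the same 200-base stretches of all 32851 promoter entries, 15.7% hold them. The letters were looked for because several of these genes are known targets, so setting them beside the 15.7% tests nothing. A match of letters is a description and shows no binding. The genes shown are 4 of the 6 members past the threshold, Egr1 and Ier2 being named only, and the motif played no part in which were shown.

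Egr1, a zinc finger transcription factor, had the largest positive difference among the genes taken by the naming rule, 6.40 on the log2(TPM + 1) scale. It was at 4081 TPM in cell 57, 3321 TPM in cell 47, 3253 TPM in cell 68, 1627 TPM in cell 46, 1021 TPM in cell 63, 1010 TPM in cell 80, 711 TPM in cell 2, 557 TPM in cell 67 and 45.5 TPM in cell 56. The Sox11-low cells spanned 0 to 2024 TPM with a median of 3.55 TPM. The sets overlap, with 3 Sox11-high cells above every Sox11-low cell and cell 56 apart at the low end.

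Fos, a subunit of the AP-1 transcription factor, was at 3030 TPM in cell 57, 1814 TPM in cell 47, 1724 TPM in cell 80, 973 TPM in cell 63, 884 TPM in cell 68, 879 TPM in cell 46, 149 TPM in cell 56, 111 TPM in cell 67 and 94.2 TPM in cell 2. Sox11-low cells reached 1302 TPM, with a median of 30.9 TPM. Fos was at 1 TPM or more in 9 of 9 Sox11-high cells and 23 of 32 Sox11-low cells, so its level set the cells apart more than its presence. Btg2, an antiproliferative gene of neurogenic divisions, was at 808 TPM in cell 80, 757 TPM in cell 46, 736 TPM in cell 47, 633 TPM in cell 63, 573 TPM in cell 56, 520 TPM in cell 68, 98.9 TPM in cell 57, 2.56 TPM in cell 67 and 2.54 TPM in cell 2. No Sox11-low cell exceeded 395 TPM of Btg2, so 6 Sox11-high cells lie above all of them. The summed level of the list was 764 TPM or more in every Sox11-high cell (median 3477 TPM), against 4.05 to 5472 TPM in Sox11-low cells (median 291.5 TPM).

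Myelin transcripts were low in 8 of the 9 Sox11-high cells. All 18 members of the myelin list were lower by 2 or more, against 4.18% of all genes, with a median difference of −5.29 on the log2(TPM + 1) scale. The list was present in 1 of 9 Sox11-high cells, cell 46 (exact interval 0.281% to 48.2%), and in 23 of 32 Sox11-low cells (53.3% to 86.3%). Its summed level was 33289 TPM in cell 46, 1516 TPM in cell 68, 973 TPM in cell 47, 367 TPM in cell 63, 301 TPM in cell 56, 48.6 TPM in cell 2, 33.3 TPM in cell 67, 17.8 TPM in cell 57 and 13.8 TPM in cell 80. The Sox11-low cells spanned 40.1 to 144751 TPM with a median of 36963 TPM. The sets overlap at both ends, since 7 Sox11-low cells were under 500 TPM and cell 46 lay near the Sox11-low median.

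Cnp, a nucleotide phosphodiesterase of the myelin sheath, was at 2418 TPM in cell 46, 419 TPM in cell 47 and 12.4 TPM in cell 80, and at most 2.64 TPM in the other 6. The Sox11-low median of Cnp was 4572 TPM, and the mean difference was −7.27. Cell 46 stood highest among the Sox11-high cells and below that median.

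Trf, the iron carrier transferrin of oligodendrocytes, was at 4433 TPM in cell 46, 10.2 TPM in cell 68, 2.67 TPM in cell 47 and 1.42 TPM in cell 2, and it was listed at 0 in the other five. Its median in Sox11-low cells was 2528 TPM. Mbp, myelin basic protein, was at 2906 TPM in cell 46 and 331 TPM in cell 63, and at most 8.28 TPM in the other 7 Sox11-high cells, against a median of 3463 TPM in Sox11-low cells. Opalin, a paranodal loop glycoprotein, was at 1028 TPM in cell 46 and below 1 TPM in the other 8. Cell 63, with 331 TPM of Mbp, had Cnp and Trf listed at 0. Other genes with the largest negative differences were Mobp (−6.03) and Mal (−5.85), both of the myelin sheath, Qdpr (−5.90), an enzyme that recycles tetrahydrobiopterin, Lpar1 (−5.76), a lysophosphatidic acid receptor, Mag (−5.67), a myelin adhesion protein, 2810468N07Rik (−5.50) and Ptgds (−5.46), prostaglandin D synthase.

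Without cell 46, the myelin list score, the mean log2(TPM + 1) over its members, differed by −6.25, against −5.36 with it. Within cells numbered from 31 the difference was −3.99 (8 and 19 cells), and within cells numbered up to 24 it was −8.12 (1 and 13 cells). Cell 46 also held the early neuroblast list, with 15 of 20 members at 10 TPM, the most of any Sox11-high cell, besides 17 of 18 myelin members and 12 of 18 mature granule members. Its estimated depth, 1046319 reads, and its 5227 genes were close to the Sox11-high medians. Whether this library holds more than 1 cell was not tested.

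Genes of oligodendrocyte precursors were lower for 4 of 8 members compared and higher for 0, against 4.18% and 4.08% of all genes. These were Olig1 (−3.45), Olig2 (−2.88) and Sox10 (−2.86), transcription factors of the lineage, and Bcas1 (−3.36), a gene of newly forming oligodendrocytes. Of the 8 members, 2 had a difference above 0, Lhfpl3 (1.04) and Neu4 (0.07). The precursor score differed by −1.18 between the sets. Among cells with a summed myelin level under 500 TPM, 6 Sox11-high and 7 Sox11-low, it differed by −0.26. In those cells 0 of 5 members compared were lower by 2 or more and 0 were higher. Over all genes of that comparison 8.98% were lower and 6.65% higher, so these counts are near those shares. As a list the precursor genes were present in 1 of 9 Sox11-high cells and in 6 of 32 Sox11-low cells. The holder was cell 47, where 7 of 12 members reached 10 TPM, with Lhfpl3 at 455 TPM, Pdgfra, the platelet-derived growth factor receptor of precursors, at 401 TPM and Gpr17, a receptor of committed precursors, at 150 TPM. Pdgfra was listed at 0 in the other 8 Sox11-high cells and was detected in 2 of 32 Sox11-low cells.

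Transcripts of astrocytes or stem cells were present in most Sox11-high cells and at similar frequency in Sox11-low cells. The list was present in 6 of 9 Sox11-high cells (29.9% to 92.5%) and in 16 of 32 Sox11-low cells (31.9% to 68.1%). Of its 18 compared members 1 was higher by 2 or more, F3 (2.05), the tissue factor gene that astrocytes express, and 0 were lower, against 4.08% and 4.18% of all genes. The score differed by 0.47 on the log2(TPM + 1) scale. It was −1.51 within cells numbered up to 24, where cell 2 is the sole Sox11-high cell, and 0.50 within cells numbered from 31.

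The summed astrocyte or stem level fell into a wide range among Sox11-high cells. It was 35329 TPM in cell 80, 26985 TPM in cell 56, 22034 TPM in cell 57, 14495 TPM in cell 67, 5940 TPM in cell 47, 5711 TPM in cell 68, 1247 TPM in cell 2, 1108 TPM in cell 63 and 974 TPM in cell 46. In Sox11-low cells it ran from 86.3 to 66311 TPM with a median of 2823 TPM. The 3 lowest Sox11-high cells were those without the list, and the 6 others were above the Sox11-low median. Aldoc, an astrocytic glycolytic enzyme, was at 9800 TPM in cell 80, 8976 TPM in cell 56, 7792 TPM in cell 57 and 5711 TPM in cell 67. It was at 434 TPM in cell 68, 431 TPM in cell 47, 99.0 TPM in cell 63, 4.35 TPM in cell 46 and 1.60 TPM in cell 2. Sox11-low cells reached 21812 TPM, with a median of 786 TPM, so the sets overlap throughout and the mean difference was −0.77.

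Slc1a3, the glutamate transporter GLAST, was at 5050 TPM in cell 56, 3550 TPM in cell 80, 3115 TPM in cell 57, 1203 TPM in cell 47, 792 TPM in cell 68, 732 TPM in cell 67, 88.4 TPM in cell 46, 66.9 TPM in cell 2 and 0.60 TPM in cell 63. Sox11-low cells ran from 0 to 5807 TPM with a median of 228 TPM. Cell 56 stood highest in Slc1a3 among the Sox11-high cells and had none of Tubb3, Cd24a, Sox4 or Eomes above 0, while its Calb2 was 99.9 TPM. Apoe, the lipid carrier, was at 10562 TPM in cell 80 and 3.38 TPM in cell 2, the highest and lowest of the Sox11-high cells, with a difference of 0.10 between the sets. Sox9, a transcription factor of astrocytes and stem cells, differed by 1.38, and 3 Sox11-high cells (57, 80 and 56) lay above every Sox11-low cell. Its median was nonetheless lower in Sox11-high cells, 63.0 TPM against 85.1 TPM, and 17 of 32 Sox11-low cells were at or above the Sox11-high median.

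**Figure D3:**
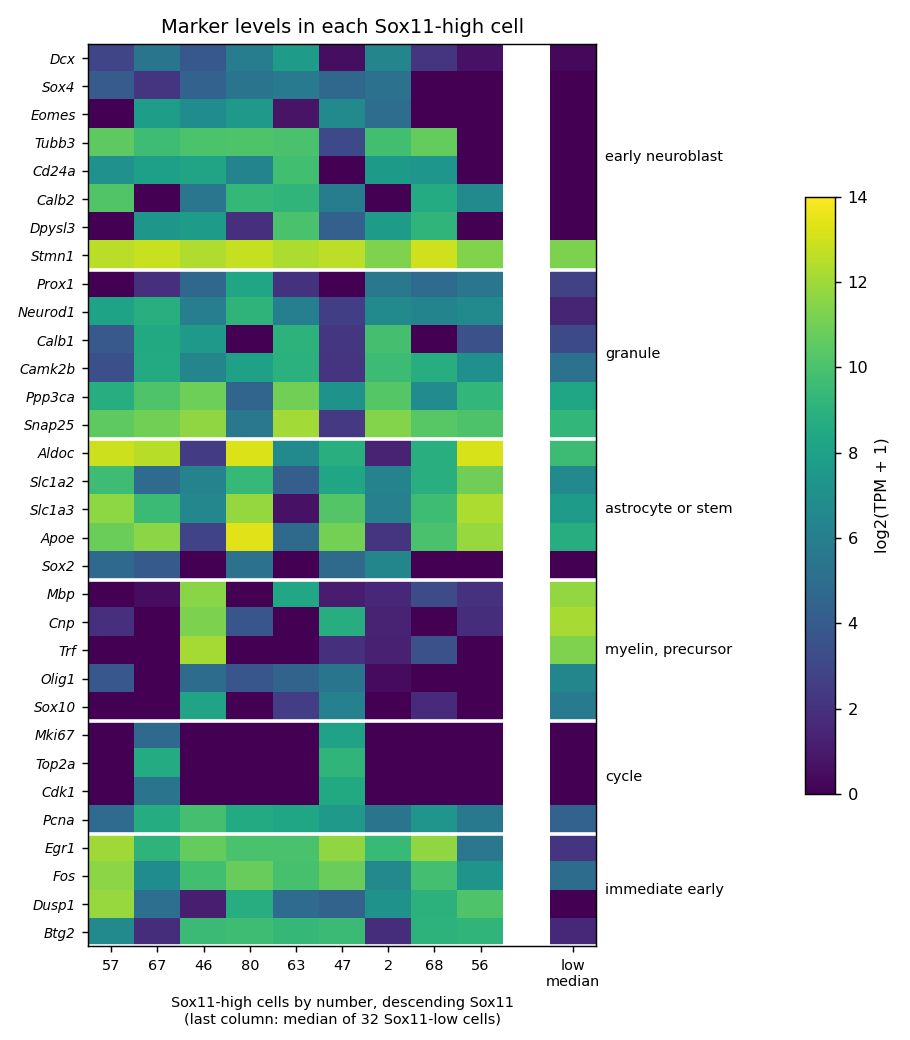
Level of marker genes in each of the 9 Sox11-high cells, in descending order of Sox11, with the median of the 32 Sox11-low cells at the right, on the log2(TPM + 1) scale. Myelin genes are bright in cell 46, astrocyte genes in cells 57, 67, 80 and 56, and Top2a and Cdk1 in cells 67 and 47.

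Mature granule transcripts were present in the Sox11-high cells about as often as in the Sox11-low cells. The list was present in 5 of 9 Sox11-high cells (21.2% to 86.3%), cells 67, 46, 63, 2 and 56, and in 17 of 32 Sox11-low cells (34.7% to 70.9%). Of the 18 members 0 were higher and 0 were lower by 2 or more, against 4.08% and 4.18% of all genes. These counts are near the shares over all genes. The median difference was 0.36. At 100 TPM per member the list was present in 3 of the 9 Sox11-high cells. The summed level was 8970 TPM in cell 63, 7112 TPM in cell 2, 6358 TPM in cell 67, 5077 TPM in cell 46, 2017 TPM in cell 56, 1385 TPM in cell 68, 649 TPM in cell 80, 507 TPM in cell 57 and 312 TPM in cell 47. Sox11-low cells ran from 55.7 to 9415 TPM with a median of 1264 TPM. The sets overlap throughout, and cell 63, with the most mature granule transcript of the Sox11-high cells, also had the most Dcx.

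The direction of the score for mature granule genes turned with the cells taken. It was 0.31 over all 41 cells, −0.053 without cell 63, −0.21 within cells numbered from 31 and 3.05 within those numbered up to 24. Among the cells with a summed myelin level under 500 TPM, 6 Sox11-high and 7 Sox11-low, it was −1.26, with 5 of 18 members lower by 2 or more and 0 higher, against 8.98% of all genes lower and 6.65% higher in that comparison. In those cells the list was present in 4 of 6 Sox11-high cells and 6 of 7 Sox11-low cells.

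Calb1, the calbindin of mature granule neurons, was at 919 TPM in cell 2, 523 TPM in cell 63, 364 TPM in cell 67, 187 TPM in cell 46, 13.8 TPM in cell 57, 10.2 TPM in cell 56 and 3.56 TPM in cell 47, and it was listed at 0 in cells 80 and 68. Sox11-low cells ran from 0 to 996 TPM with a median of 8.05 TPM, and 23 of 32 had at least 1 TPM. Calbindin and calretinin transcripts were both above 40 TPM in cells 46 and 63. Cells 67 and 2 had Calb1 with Calb2 listed at 0, and cells 80 and 68 the reverse. Ppp3ca, the catalytic subunit of calcineurin, was at 22.4 to 2064 TPM in Sox11-high cells (median 617 TPM) and at 9.91 to 2804 TPM in Sox11-low cells (median 300.1 TPM), with a difference of 0.53. Camk2b, a subunit of the calcium and calmodulin dependent kinase, differed by 1.43, Gria1, an AMPA receptor subunit, by 1.02, and Rasgrp1, a Ras activator, by −1.21.

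Granule identity genes gave a mixed picture. The list was present in 3 of 9 Sox11-high cells, cells 67, 63 and 2, and in 12 of 32 Sox11-low cells, and 2 of its 14 members were higher by 2 or more, against 4.08% of all genes. It was present in 0 Sox11-high cells when members had to reach 100 TPM and in 7 when 25% of members sufficed. One of the higher genes was Neurod1, a transcription factor of differentiating granule neurons, at 559 TPM in cell 80, 442 TPM in cell 67, 275 TPM in cell 57, 102.2 TPM in cell 2, 101.8 TPM in cell 56, 79.4 TPM in cell 68, 65.1 TPM in cell 63, 62.0 TPM in cell 46 and 4.96 TPM in cell 47. Sox11-low cells reached 187 TPM of Neurod1, with a median of 1.78 TPM, and 3 Sox11-high cells lay above all of them. Neurod1 was thus at 1 TPM or more in every Sox11-high cell and in 22 of 32 Sox11-low cells, with a difference of 4.08. The other higher gene was Pdzd2, a PDZ domain protein, with a difference of 2.40. Prox1, which sets granule cell identity, was at 297 TPM in cell 80 and 48.3 TPM in cell 2 and was detected in 7 of 9 Sox11-high cells and 17 of 32 Sox11-low cells, with a difference of 0.55. Lct, the lactase gene, was listed at 0 in all 9 Sox11-high cells and was detected in 7 of 32 Sox11-low cells. The score for granule identity differed by 0.48, but by −0.64 among the cells poor in myelin transcripts.

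The pan-neuronal synaptic list was present in 7 of 9 Sox11-high cells and in 18 of 32 Sox11-low cells. Past the threshold were 0 of 12 members in either direction, near the shares of 4.08% higher and 4.18% lower over all genes. At 100 TPM per member it was present in 2 of the 9 Sox11-high cells. Snap25, a vesicle fusion protein, was at 4323 TPM in cell 63, 3210 TPM in cell 46, 2740 TPM in cell 2, 2047 TPM in cell 67, 1448 TPM in cell 57, 1315 TPM in cell 68, 1091 TPM in cell 56, 47.3 TPM in cell 80 and 3.95 TPM in cell 47. Sox11-low cells ran from 3.62 to 6629 TPM with a median of 642 TPM. The sets overlap throughout, with a difference of 0.96, and cells 80 and 47 stood low. Among the cells poor in myelin transcripts the score for the list differed by −0.84, against 0.67 over all 41 cells.

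**Figure D4:**
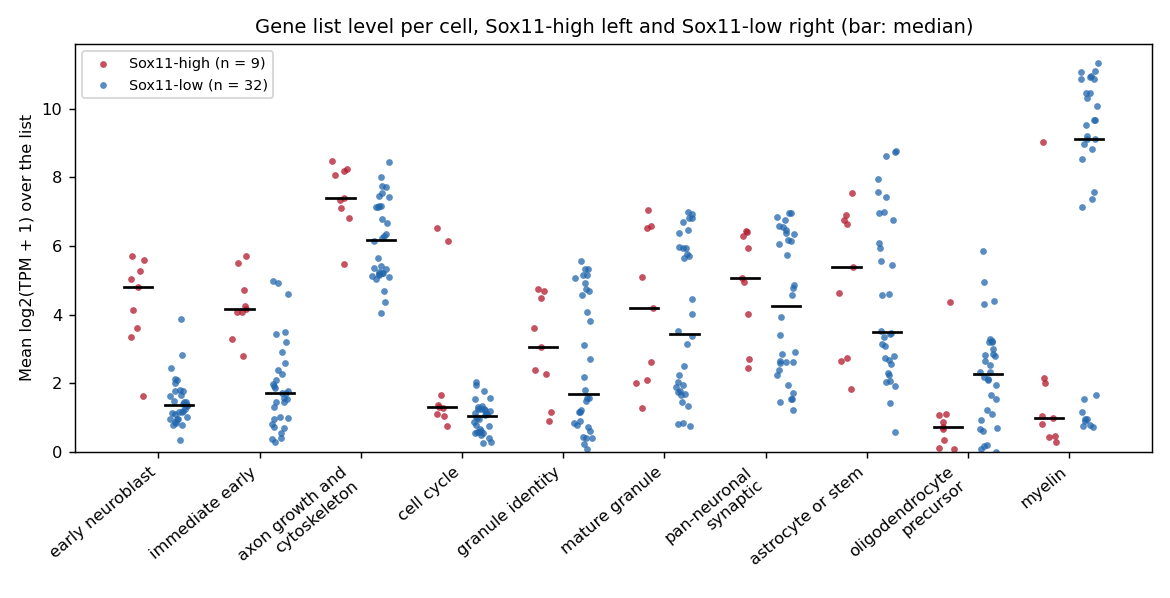
Mean log2(TPM + 1) over each gene list in every cell, with the 9 Sox11-high cells left of the 32 Sox11-low cells and bars at the medians. The early neuroblast list sets most Sox11-high cells above the Sox11-low cells. In the myelin list, cell 46 alone among Sox11-high cells is at the level of the Sox11-low cells that hold the list. The granule and astrocyte lists overlap.

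Across lists, 4 of 9 Sox11-high cells held both the early neuroblast and the mature granule list (cells 67, 46, 63 and 2), and 3 held both the early neuroblast and the astrocyte or stem list (cells 67, 80 and 68). Cells 67 and 56 held both the mature granule and the astrocyte or stem list. Cell 67 was the only Sox11-high cell with all of these lists. Cell 57, which had the highest Sox11, held the pan-neuronal and astrocyte or stem lists and 7 of 20 early neuroblast members.

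Cell cycle genes marked a pair of the Sox11-high cells. Cells 67 and 47 each had 12 of 14 members at 10 TPM, while 0 of 32 Sox11-low cells had at least 50% of the members at that level. Rrm2, a ribonucleotide reductase subunit of S phase, was at 1576 TPM in cell 47, 652 TPM in cell 67 and 82.6 TPM in cell 80, and it was listed at 0 in the other six. Top2a, topoisomerase II alpha, was at 567 TPM in cell 47 and 392 TPM in cell 67, and Cdk1, the mitotic kinase, at 362 TPM in cell 47 and 40.2 TPM in cell 67. Both were listed at 0 in the other 7 Sox11-high cells and in all 32 Sox11-low cells, and both were singled out after their values were seen. Pcna, the replication clamp, was at 1 TPM or more in 9 of 9 Sox11-high cells and 20 of 32 Sox11-low cells, with a difference of 3.27. Without cells 47 and 67 the early neuroblast score differed by 3.01, against 2.88 with them.

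Restricted to the cells with under 500 TPM of summed myelin transcript, 6 Sox11-high and 7 Sox11-low, the early neuroblast score differed by 2.55. There 10 of 18 members were higher by 2 or more, against 6.65% of all genes. Cd24a, Calb2, Sox4 and Eomes were detected in 0 of the 7 Sox11-low cells, so they passed the detection filter through the Sox11-high cells alone. Dpysl3 and Elavl4, each in 1 of these 7 cells, also passed it only with the Sox11-high cells. For such members the count as higher partly follows from the filter, which limits its comparison with the 6.65%. The list was present in 4 of these 6 Sox11-high cells and 0 of these 7 Sox11-low cells. Over all genes 673 of 10122 were higher and 909 lower in these cells. The genes higher in both comparisons were 209, which is 49.6% of the 421 and 31.1% of the 673. Those lower in both were 125, which is 29.0% of the 431 and 13.8% of the 909. The immediate early score differed by 1.45, against 2.35 over all 41 cells.

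Markers of other cell types were scarce in the Sox11-high cells. None of the lists for GABAergic neurons, microglia or macrophages, endothelial or mural cells, ependymal or choroid plexus cells and erythroid cells was present in any of the 9. Their defining markers Aif1 (microglia), Cldn5 (endothelium), Foxj1 (ependyma) and Hba-a1 (red cells) were listed at 0 in all 9, and Gad1, the GABA synthesis enzyme, was at 96.3 TPM in cell 2 and 94.8 TPM in cell 47 and listed at 0 in the rest. Cell 68 stood apart in having Reln, the reelin of Cajal-Retzius cells, at 1909 TPM, against at most 31.6 TPM in any other Sox11-high cell and 307 TPM in any Sox11-low cell. Ndnf was at 534 TPM and Trp73 at 379 TPM in cell 68, while single Sox11-low cells reached 509 TPM of Ndnf and 548 TPM of Trp73. Cytosolic ribosomal protein genes summed to 19740 to 35348 TPM in Sox11-high cells (median 25618 TPM), against 6602 to 24097 TPM in Sox11-low cells (median 15279 TPM). Of those 22 genes 0 passed the threshold of 2, near the shares of 4.08% higher and 4.18% lower over all genes. Their median difference was 1.05. The part of this difference and of depth in the other results was not tested.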

How the data were processed

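Polyadenylated RNA of 64 single cells was measured, 1 file per cell. The deposited column is headed as an RSEM expected count, but the deposited column has the same total in every cell (999999 to 1000001 over all transcripts), which makes its unit TPM. Per the submitters' processing notes, Bowtie2, RSEM and the mouse build mm9 were used, with no versions given. Values of the 30970 transcripts were summed per symbol. The 1037 without a symbol were left out, and 48 symbols turned into numbers were restored from RefSeq, giving 23313 genes. Hbb-b1 was not matched.

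Scores are means of log2(TPM + 1), with a pseudocount of 1, in Python 3.11.15 with pandas 2.3.3. Depth was estimated from the pile-up at 1 read of the product of TPM and effective length, for 24429 transcripts of at least 1000 bases. Between 72.9% and 81% of values between 0.5 and 1.5 reads lay within 10% of 1 read, and on simulated libraries the estimate was 1.01 to 1.03 times the true depth. Intervals are exact at 95%.

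The members and all gene lists were chosen with earlier results of these data known. Named genes are the 12 largest differences in each direction among genes detected in at least 50% of the set in which they are higher, and from each list the 5 largest differences, the 3 highest medians and the first marker. Some genes that the rule names are not reported here. Other thresholds, filters, pseudocounts and cell subsets were tried. Comparisons between sets of cells were descriptive, since the labels name no animal.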

Additional observations from a re-analysis of the deposited data

Results flagged for a closer look

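Among 21 measures taken over the 9 Sox11-high cells, 11 had a cell whose gap to the nearest other cell exceeded Dixon's 95% bound. Chance gives such a gap in about 1 in 20 groups, the measures were made on the same 9 cells, and summed levels in TPM are skewed. Dcx was at 212 TPM in cell 63. Cell 2 had an estimated 3393530 reads, and it is the single Sox11-high cell of the deeper libraries numbered up to 24. The summed myelin level was 33289 TPM in cell 46. The summed oligodendrocyte precursor level was 1595 TPM in cell 47. The summed level of axon growth and cytoskeleton genes was low in cell 56, at 6132 TPM.

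Lists of cell types that were otherwise scarce gave the remaining ones. The GABAergic list stood at 927 TPM in cell 57, where 1 of its 12 members reached 10 TPM. The list of Cajal-Retzius, mossy and pyramidal cells stood at 2845 TPM in cell 68, of which Reln made up 1909 TPM. The microglial list stood at 307 TPM in cell 46, while Aif1, its first marker, was listed at 0. The endothelial or mural list stood at 391 TPM in cell 68, the ependymal or choroid plexus list at 127 TPM in cell 67 and the erythroid list at 6.23 TPM in cell 56. None of these lists reached 50% of its members at 10 TPM in any Sox11-high cell.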

How the results depend on the processing

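The count of 421 genes higher was 1028 with a pseudocount of 0.1, 77 with one of 10, 1039 by medians, 654 with Sox11 at 1000 TPM or more, 699 against cells under 10 TPM, 266 against all cells under 500 TPM, 2940 in cells numbered up to 24, 673 in cells poor in myelin transcripts, 1849 at a threshold of 1 and 87 at 3. The 431 genes lower became 1074, 87, 759 (medians), 1331 (cells up to 24), 909 (poor in myelin), 1651 and 119 under the matching choices. Leaving out each Sox11-high cell in turn gave 451 to 534 genes higher and 401 to 506 lower.

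The early neuroblast list was in 1 cell when members had to reach 100 TPM. The granule identity score was −0.045 against all cells under 500 TPM, 2.18 in cells up to 24 and −0.64 in cells poor in myelin. That list was in 5 cells at 1 TPM, 0 at 100 TPM and 7 at 25% of members. The mature granule score was −0.26 against all cells under 500 TPM, 3.05 in cells up to 24, −0.21 in cells from 31 and −1.26 in cells poor in myelin, and its list was in 3 cells at 100 TPM. The pan-neuronal score was 2.38 in cells up to 24 and −0.84 in cells poor in myelin, with the list in 2 cells at 100 TPM. The myelin score was −8.15 by medians and −8.12 in cells up to 24, and the list was in 2 cells at 1 TPM and in 2 with Sox11 at 200 TPM or more. The precursor list was in 0 cells at 100 TPM and in 2 with Sox11 at 200 TPM or more. The astrocyte or stem score was −1.51 in cells up to 24. The cause was not tested in any of these cases.

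Without single Sox11-high cells, the scores ran from 2.71 to 3.22 (early neuroblast, 5 to 6 cells with the list), 0.27 to 0.75 (granule identity, 2 to 3 cells), −0.053 to 0.67 (mature granule, 4 to 5 cells), 0.48 to 0.98 (pan-neuronal, 6 to 7 cells), −6.25 to −5.15 (myelin, 0 to 1 cells), −1.60 to −1.06 (precursor, 0 to 1 cells) and 0.15 to 0.87 (astrocyte or stem, 5 to 6 cells). Of all values recomputed, 266 stayed within the limits set, 34 moved and 8 turned sign. No paired analysis was possible because the labels name 1 group and no result comes from a test. With 9 cells, a list absent from all of them could still be in up to 33.3% of such cells.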

Other observations

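The 23 cells between the bounds, with Sox11 at 51.0 to 328 TPM, held the mature granule list in 19 cells and the granule identity list in 16. The pan-neuronal list was present in 20 of them, the astrocyte or stem list in 15 and the myelin list in 10. Their summed mature granule level had a median of 6317 TPM, against 2017 TPM in the Sox11-high cells. Of the 23 cells, 6 had at least 1 TPM of Dcx, with a highest level of 16.0 TPM, Sox4 in 4 and Eomes in 1. The cell cycle list was present in 1 of them.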
